A study of Mus musculus with 24 samples.

Results

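The replication-dependent histone genes were taken as the rows of the count table whose symbol begins with Hist1h, Hist2h, Hist3h or Hist4h and is not marked as a pseudogene by "-ps". This gave 69 members out of 55376 genes: 6 for the linker histone H1 and 20, 18, 12 and 13 for the core histones H2A, H2B, H3 and H4. Of these, 56 lie on chromosome 13, 10 on chromosome 3, 2 on chromosome 11 and 1 on chromosome 6. The annotation calls 67 of them protein coding and 2, Hist1h2aj and Hist1h2al, pseudogenes.

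These genes encode the histones that package newly copied DNA. Their mRNAs are made mainly in S phase, and most end in a conserved stem-loop in place of a poly(A) tail. The stem-loop is bound by the protein SLBP, which serves in the processing, translation and decay of these mRNAs. Some members also give polyadenylated transcripts that read past the stem-loop, chiefly in cells that have left the cycle, while the replication-independent histone variants are polyadenylated throughout. The gene altered in these mice, Zfp36, encodes tristetraprolin (TTP), a protein that binds AU-rich elements in mRNAs and promotes their decay.

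Bulk mRNA-seq was available for 24 libraries of sorted bone marrow cells from untreated male mice, either young (4 to 5 months old) or middle-aged (1 year old). Hematopoietic stem cells (HSCs, gated as LSK CD34- Flk2- CD150+) gave 4 Y-WT, 4 Y-TTPΔARE, 5 M-WT and 3 M-TTPΔARE libraries, and the granulocyte- and monocyte-biased multipotent progenitors named MPP3 gave 4 Y-WT and 4 Y-TTPΔARE libraries. TTPΔARE mice are homozygous for a germline deletion of the AU-rich element of the Zfp36 3′ UTR, so the allele is present in every cell of the animal and not only in blood cells, and the WT mice were their littermates. Nothing in the labels says that each library came from another animal, so the p-values measure the spread between these samples, which may be technical. Age and cell type each coincide with a numbered set of libraries, and the set cannot be told apart from either. In bulk samples a smaller share of cells that express a gene and less of its RNA per cell cannot be told apart.

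Libraries held 24261371 to 39934554 counts, and the members took 0.0105 to 0.0569% of them. Levels are given as TMM-normalized CPM, with the SD over the libraries of a group. The labels were checked on Mpo, a granule enzyme of myeloid progenitors, at a mean of 3.56 CPM in Y-WT HSCs and 658 CPM in Y-WT MPP3 cells, and on Procr, an HSC surface marker, at 160 and 80.6 CPM. The summed level of 5 T and NK cell markers, which neither gate should hold, was 48.9 to 62.6 CPM in Y-WT HSCs, 81.5 to 140 in Y-TTPΔARE HSCs, 10.4 to 21.8 in M-WT HSCs and 12.8 to 25.1 in M-TTPΔARE HSCs. In MPP3 cells it was 197 to 316 CPM for WT and 201 to 575 for TTPΔARE, of which Nkg7 held 239 ± 54.1 CPM in WT (SD, n = 4), while Cd3e lay between 0 and 0.637 CPM there. The part of these cells in the results was not tested. One library stood apart: in Y-TTPΔARE MPP3 replicate 4 the members summed to 779 CPM, 3.55 times the mean of the other 3, and the results it bears on most are given with and without it.

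The stem-loop itself was read from the annotated transcripts (GENCODE M21, GRCm38), as a 6-base inverted repeat that starts with GG around a 4-base loop that starts with TT. It was found in 44 of the 69 members, 21 to 58 bases past the stop codon (median 31). The examples are shown because they carry the main differences in level and the variation between classes, with the stem and loop in capitals and 5 flanking bases on each side in lower case.
Hist1h4d: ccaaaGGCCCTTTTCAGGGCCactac
Hist1h4i: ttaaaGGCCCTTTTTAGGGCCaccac
Hist1h2ae: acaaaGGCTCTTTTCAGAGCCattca
Hist2h2ac: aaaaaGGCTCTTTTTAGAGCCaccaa
Hist1h1c: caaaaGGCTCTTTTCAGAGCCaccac
Hist1h1e: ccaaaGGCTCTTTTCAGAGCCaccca
Hist3h2a: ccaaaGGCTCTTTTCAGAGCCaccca

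The capitals lie at chr13:23581950-23581965 on the plus strand for Hist1h4d and at chr13:22040966-22040981 on the minus strand for Hist1h4i. They lie at chr13:23570668-23570683 on the minus strand for Hist1h2ae and at chr3:96220418-96220433 on the minus strand for Hist2h2ac. For Hist1h1c they lie at chr13:23739512-23739527 (plus), for Hist1h1e at chr13:23621782-23621797 (minus) and for Hist3h2a at chr11:58955172-58955187 (plus). All 7 are exonic and within the annotated 3′ UTR of a single-exon gene. The form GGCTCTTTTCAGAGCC was shared by 26 members of the H1, H2A, H2B and H3 classes, whereas all 7 members with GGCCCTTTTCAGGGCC encode H4. The other H4 forms were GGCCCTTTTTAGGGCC and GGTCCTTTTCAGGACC, in 2 members each. The form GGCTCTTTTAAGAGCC was present in 6 members of H1, H2B and H3, and Hist2h2ac alone held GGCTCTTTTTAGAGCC.

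Few members made up most of the signal. Hist1h4d, an H4 gene, had the highest mean over the 24 libraries, 45.3 CPM, which is 24.0% of the CPM of all members. Next came Hist1h2ae (H2A) at 22.1 CPM, the linker histone genes Hist1h1c at 17.5 and Hist1h1e at 16.6, Hist1h2bc (H2B) at 16.7, Hist2h2be (H2B) at 11.2 and Hist3h2a (H2A) at 9.13. These 7 genes held 73.3% of member CPM, and with Hist1h1b, Hist1h4i, Hist1h2be, Hist1h1d and Hist1h2ac, at 2.63 to 7.67 CPM, the 12 highest held 86.2%. The place of Hist1h2ae rested on Y-TTPΔARE MPP3 replicate 4: over the other 23 libraries its mean was 12.9 CPM, below Hist1h1c at 17.0, Hist1h2bc at 16.2 and Hist1h1e at 14.8, with Hist1h4d still highest at 37.6. H3 genes were the lowest class, led by Hist1h3d at 1.83 CPM, and took 3.08% of member CPM against 25.6% for H1, 19.0% for H2A, 23.6% for H2B and 28.8% for H4. At the other end, Hist2h3c1 and Hist1h2br had no count in any library, and 5 members had at most 3 counts in all. Hist1h1t, a linker histone of the testis, lay between 0 and 0.354 CPM.

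Per kb of annotated exon the same 2 genes led. Hist1h4d was at 39.8 CPM per kb, Hist1h2ae at 31.3, Hist1h2bc at 14.4, Hist1h1c at 11.2, Hist1h1b at 10.3, Hist1h4i at 8.64 and Hist1h1e at 8.58. Without Y-TTPΔARE MPP3 replicate 4, Hist1h4d was at 33.0 and Hist1h2ae at 18.3 CPM per kb, still ahead of Hist1h2bc at 14.0. Hist1h1d, whose annotated exon spans 7425 bases, was at 0.402 CPM per kb. A median of 99.6% of the 100-base stretches of H1 genes was unique to the gene, against 30.1% for H2A, 63.55% for H2B, 50.25% for H3 and 81% for H4, and 5 members had no unique stretch. The 16 members with at most 20% unique stretches had a median of 0.131 CPM and the 22 members with over 80% a median of 1.198 CPM. Levels of the less unique members are therefore uncertain, since how reads that match several genes were treated is not stated. In addition, 26 members overlap another annotated gene, among them Hist3h2a, which overlaps Trim17 on the same strand, and Hist1h1e and Hist1h2be, whose exons overlap each other.

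The level also differed with the annotated end of the gene. Of the 44 members with a stem-loop, 22 had an annotated end more than 100 bases past it, with a median of 1.25 CPM per kb, and these held 72.9% of member CPM and 9 of the 12 highest members. The 22 whose annotation stops within 100 bases of the stem-loop had a median of 0.628 CPM per kb, 5.58% of member CPM and none of the 12. The 25 members without a stem-loop in the annotated transcript held 21.6% of member CPM and the other 3 of the 12, Hist1h1b, Hist1h2bc and Hist2h2be. Hist1h4d is annotated at chr13:23581598-23582735, 770 bases past its stem-loop, and Hist1h2ae at chr13:23570517-23571220, 151 bases past it. The median level also rose with the share of unique stretches, as given above, and the groups by annotated end were not matched for that share. The part of uniqueness in the difference between these groups was not tested. The library kit named by the study primes cDNA from poly(A), and the share of stem-loop-ended mRNA that such a library takes up was not tested.

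**Figure D1:**
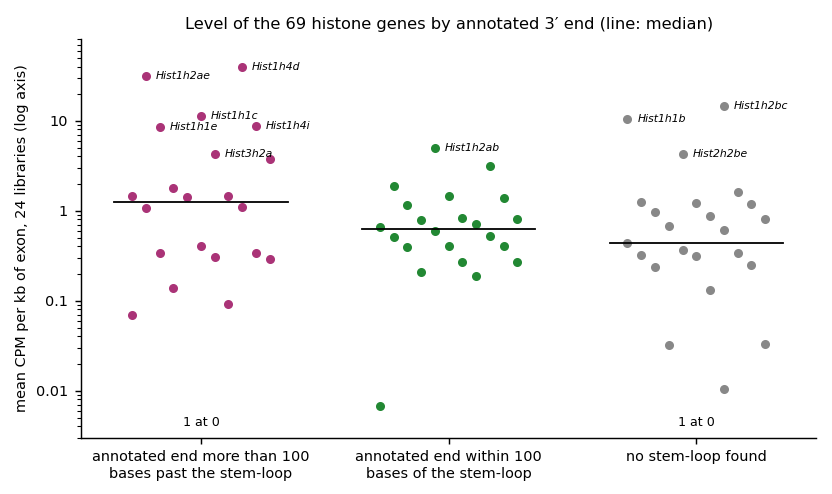
Mean CPM per kb of exon over 24 libraries (log axis) for each member, by where its annotated end lies relative to the stem-loop, with a line for the median and the number of members at 0 in words. The members annotated more than 100 bases past the stem-loop reach 39.8 CPM per kb, against 4.95 for those annotated within 100 bases of it. The groups were not matched for the share of unique stretches.

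Summed over the members, WT MPP3 cells stood above WT HSCs, and young above middle-aged WT HSCs. The sum was 136 ± 12.0 CPM in Y-WT HSCs (n = 4), 113 ± 6.98 in M-WT HSCs (n = 5) and 242 ± 19.2 in Y-WT MPP3 cells (n = 4). For TTPΔARE it was 158 ± 42.0 CPM in young HSCs (n = 4), 128 ± 5.75 in middle-aged HSCs (n = 3) and 359 ± 282 in MPP3 cells (n = 4), or a mean of 219 without replicate 4. The WT groups did not overlap, whereas the TTPΔARE groups did. The number of members at 1 CPM or more in every library of a group was 13 in both young HSC groups, 10 in M-WT and 11 in M-TTPΔARE HSCs, and 20 in each MPP3 group. The replication-independent variants, which are not members, summed to 22.4 ± 3.24 times the member level (SD, n = 24, range 12.6 to 28.7).

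**Figure D2:**
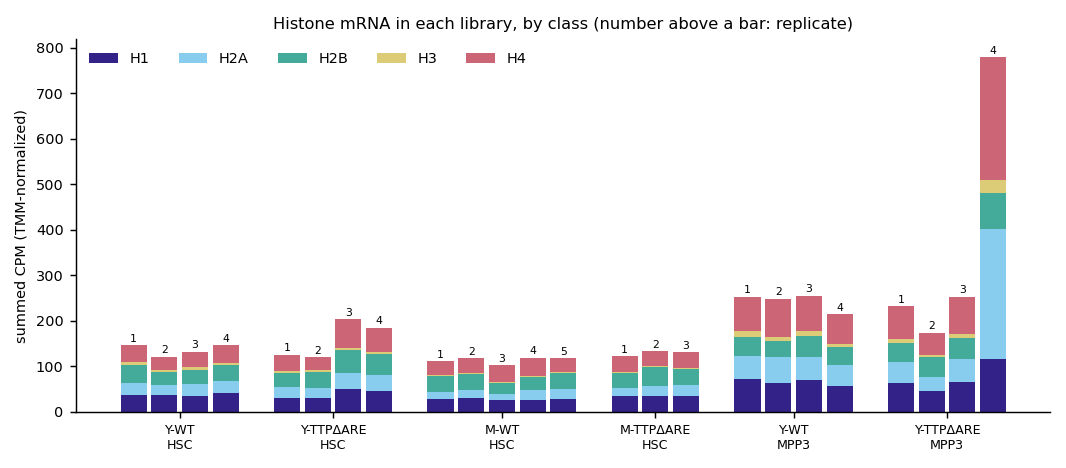
Summed CPM of the 69 members in each of the 24 libraries by group, as bars stacked by histone class, with the replicate number above each bar. Y-WT MPP3 libraries lie between 214 and 255 CPM, above all HSC libraries, and Y-TTPΔARE MPP3 replicate 4 stands at 779 CPM.

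The class sums did not move alike. Between Y-WT HSCs and Y-WT MPP3 cells, H1 went from 37.2 ± 2.33 to 65.2 ± 6.60 CPM, H2A from 25.3 ± 2.05 to 50.9 ± 4.37, H3 from 5.38 ± 0.573 to 10.1 ± 1.99 and H4 from 34.4 ± 3.90 to 75.4 ± 8.37 (SD, n = 4 each). H2B went from 33.8 ± 5.40 to 40.8 ± 4.89 CPM, and its share of member CPM from 24.8 ± 1.98% to 16.9 ± 1.99%. The H2B libraries of the 2 groups overlap and those of the other classes do not. Gene by gene, the tested H2B genes had a median log2 fold change of 1.52, with 8 of 11 positive. Under the logCPM limit 0 of these 11 were called, as given below. The medians were 1.30 for H1, 1.36 for H2A, 1.18 for H3 and 1.08 for H4. These medians hold members that pass the filter on low counts only where they are high in MPP3 cells, and a difference between classes was not tested. In M-WT HSCs the sums were 28.0 ± 2.19 for H1, 17.6 ± 3.20 for H2A, 31.5 ± 5.67 for H2B, 2.50 ± 0.643 for H3 and 33.6 ± 4.48 for H4 (SD, n = 5). H1, H2A and H3 of M-WT HSCs lay below every Y-WT HSC library, while H2B and H4 overlapped. Since the members were chosen with earlier results known, these sums are given without a test.

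**Figure D3:**
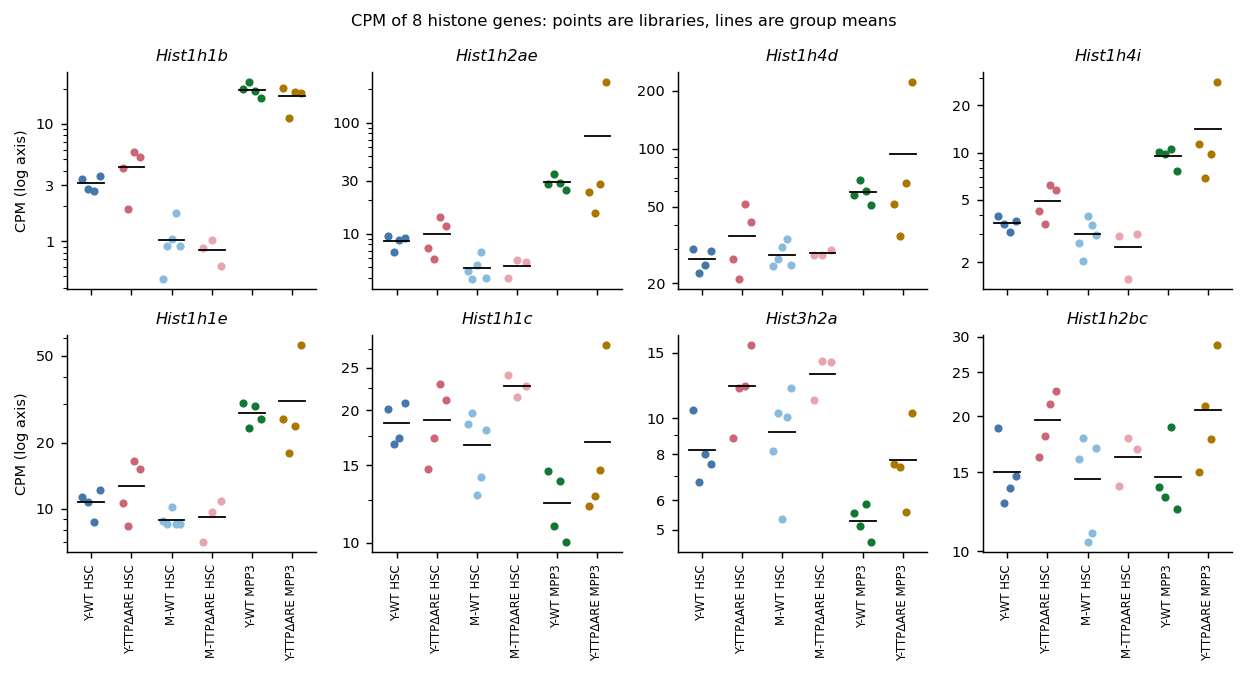
CPM (log axis) of 8 of the highest members by group, with 1 point for each library and a line for the group mean. Hist1h1b separates MPP3 cells (11.3 to 22.8 CPM) from young HSCs (1.87 to 5.73) and middle-aged HSCs (0.475 to 1.74), whereas Hist1h2bc overlaps between all groups.

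Comparing Y-WT MPP3 cells with Y-WT HSCs asks how the members differ between a progenitor and the stem cell. A linker histone (Hist1h1b), 2 H2A genes, 2 H4 genes and a second linker histone gene (Hist1h1e) were higher in MPP3 cells, while the linker histone gene Hist1h1c and the H2A gene Hist3h2a were lower. Hist1h1b showed the largest difference among the called members. Its libraries were at 3.35, 2.79, 2.67 and 3.60 CPM in HSCs and 19.8, 22.8, 19.2 and 16.6 CPM in MPP3 cells, a log2 fold change of 2.61 ± 0.16 (SE, 95% interval 2.25 to 2.98, adjusted p = 1.89e-05, edgeR) or 6.11-fold. The lowest MPP3 library was far above the highest HSC library.

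Hist1h2ae was at 9.54, 6.88, 8.84 and 9.13 CPM in Y-WT HSCs and at 28.0, 34.4, 28.6 and 24.9 CPM in Y-WT MPP3 cells, 1.71 ± 0.16 on the log2 scale (adjusted p = 9.22e-05). Hist1h4d was at 30.0, 22.5, 24.9 and 29.5 CPM in HSCs and at 57.6, 69.0, 60.6 and 50.8 CPM in MPP3 cells, 1.11 ± 0.14 (adjusted p = 0.000554). For both genes all MPP3 libraries lay above all HSC libraries. Hist1h4i, the other H4 gene shown above, rose by 1.37 ± 0.16 (adjusted p = 0.000314) from 3.56 ± 0.339 to 9.52 ± 1.31 CPM. Hist1h1e rose by 1.30 ± 0.13 (adjusted p = 0.000146) from 10.7 ± 1.46 to 27.2 ± 3.30 CPM.

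Hist1h2ab, an H2A gene at chr13:23751126-23751598 with 47.6% of its stretches unique, was at 0.734, 0.817, 1.71 and 0.827 CPM in HSCs and at 4.44, 5.00, 4.96 and 4.25 CPM in MPP3 cells, 2.16 ± 0.32 on the log2 scale (adjusted p = 0.00124). It lies close to the limit on logCPM and fell below it without any 1 of the 4 MPP3 libraries.

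Among the 5 H1 genes tested only Hist1h1c lay below 0, and among the 9 H2A genes Hist3h2a, Hist1h2ac (-0.57, adjusted p = 0.155) and Hist1h2ap (-0.09, adjusted p = 0.923) did. Hist1h1c was at 20.1, 16.8, 17.3 and 20.7 CPM in HSCs and at 14.6, 11.0, 13.8 and 10.1 CPM in MPP3 cells, -0.65 ± 0.14 on the log2 scale (adjusted p = 0.00704). Hist3h2a was at 10.5, 6.74, 7.99 and 7.53 CPM in HSCs and at 5.54, 5.11, 5.86 and 4.64 CPM in MPP3 cells, -0.69 ± 0.19 (adjusted p = 0.0238). Neither gene overlapped between the groups. Both have the same 16-base stem-loop as Hist1h2ae and Hist1h1e, which rose. The call on Hist3h2a was lost without Y-WT HSC replicate 1 (-0.45, adjusted p = 0.0529) or without Y-WT MPP3 replicate 2 or 4 (adjusted p = 0.0848 and 0.0561), and reads of Hist3h2a and Trim17 cannot be told apart where the genes overlap.

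In all, 40 members passed the filter on low counts, 13 of these exceeded an average logCPM of 1.5, and 6 were called higher and 2 lower. Of all genes tested, 14.5% were called higher and 7.69% lower, and of those over the same logCPM limit 24.7% and 13.1%. Without that limit 12 members were called higher, against 14.8% of genes, and 2 lower. A member that is low in HSCs passes the filter only where it is high in MPP3 cells, so the sign of such members and the counts and medians that hold them are in part set by the filter. Among the added members, both of this kind, Hist1h2ag (H2A) went from 0 to 0.170 CPM in HSCs to 0.674 to 1.42 CPM in MPP3 cells, and Hist1h2bk (H2B) from 0 to 0.118 to between 0.494 and 0.925 CPM. Only 23.8% and 29.2% of their stretches were unique. Over the limit, 7 members were higher and 2 lower without overlap between the groups, against 33% and 13.1% of all genes. The median log2 fold change was 0.45 over the 13 members over the limit, against 0.12 over all genes over it. Over all 40 members tested it was 1.19, with 29 positive, against -0.16 over all genes tested, with the filter acting as described. The same holds for the medians over tested members in the comparisons that follow.

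Of the members over the logCPM limit that were not called, Hist1h2bc differed by -0.10 ± 0.17 on the log2 scale (95% interval -0.49 to 0.29), and Hist2h2be by 0.45 without overlap between the groups (adjusted p = 0.0767). By class, 3 of 5 H1 genes tested, 3 of 9 H2A, 2 of 7 H4, 0 of 11 H2B and 0 of 8 H3 genes were called. Only 3 of the 11 H2B genes and 0 of the 8 H3 genes were over the logCPM limit, against 4 of 5 H1, 4 of 9 H2A and 2 of 7 H4 genes.

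The listed partners of these genes differed in the same comparison. All 21 S phase genes were called higher, with a median log2 fold change of 1.48, among them Mki67 (2.49), Ccna2 (2.16), the helicase subunit gene Mcm5 (1.58) and the sliding clamp gene Pcna (1.08). Of 21 genes for stem-loop mRNA 3′ end formation and regulation, 13 were called higher, including Slbp at 0.97 (adjusted p = 0.000767) and Npat, an activator of histone gene transcription, at 0.58 (adjusted p = 0.00278). Of 11 replication-independent variants 9 were called higher, with H2afz at 1.17 (adjusted p = 0.000245), while H3f3b was at 0.15 (adjusted p = 0.317). Of 15 histone chaperones, 10 were called higher. Scaling by library totals in place of TMM shifted the log2 fold changes by -0.25 in this comparison. Marker sums of other cells differed too: those of 4 megakaryocyte and 4 endothelial markers were 168 to 194 and 188 to 370 CPM in Y-WT HSCs against 139 to 154 and 118 to 157 CPM in Y-WT MPP3 cells, and their part was not tested.

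The TTPΔARE libraries gave the same comparison with no library in common. Of the 6 members higher in WT, 4 were called here too, and no other member was called higher. Hist1h1b was at 4.21, 1.87, 5.73 and 5.17 CPM in Y-TTPΔARE HSCs and at 20.3, 11.3, 18.8 and 18.3 CPM in Y-TTPΔARE MPP3 cells, 1.91 ± 0.32 on the log2 scale (adjusted p = 0.00218), and the call was kept without any 1 of the 8 libraries. Hist1h4i rose by 1.35 ± 0.36 (adjusted p = 0.025), or 0.90 ± 0.24 without replicate 4 (adjusted p = 0.0291). Hist1h1e rose by 1.14 ± 0.30 (adjusted p = 0.0245), or 0.81 ± 0.23 without it (adjusted p = 0.0333). Leaving out each library in turn, the call held in 4 of 8 fits for Hist1h4i, in 5 of 8 for Hist1h1e and in 4 of 8 for Hist1h2ae. It was lost for all 3 genes without Y-TTPΔARE HSC replicate 1 (adjusted p = 0.103 to 0.11) or replicate 2 (0.0755 to 0.106).

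Hist1h2ae was at 7.44, 5.95, 14.2 and 11.8 CPM in Y-TTPΔARE HSCs and at 23.9, 15.5, 28.1 and 233 CPM in MPP3 cells. All MPP3 libraries were above all HSC libraries, and replicate 4 was at 10.3 times the mean of the other 3. The log2 fold change was 2.70 ± 0.76 (adjusted p = 0.0329) with replicate 4 and 1.16 ± 0.29 (adjusted p = 0.0189) without it. Hist1h4d, at 26.6, 21.0, 51.3 and 41.8 CPM in HSCs and 51.4, 35.2, 66.4 and 223 CPM in MPP3 cells, was at 1.23 (adjusted p = 0.109), or 0.50 ± 0.29 (adjusted p = 0.297) without replicate 4, and the groups overlapped.

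Hist3h2a was lower in MPP3 cells of this genotype as well, at 7.50, 7.39, 5.60 and 10.3 CPM against 8.82, 12.1, 12.2 and 15.8 CPM in HSCs (-0.77 ± 0.20, adjusted p = 0.0231, or -0.84 ± 0.22, adjusted p = 0.0231, without replicate 4). The groups overlapped by replicate 4. Leaving out each library in turn, the call held in 3 of 8 fits (-0.91 to -0.64, adjusted p up to 0.0826), and it was lost with the olfactory receptor covariate (adjusted p = 0.0688). Hist1h1c was called lower without replicate 4 (-0.55, adjusted p = 0.0317) and not with it, where that library was at 28.2 CPM against 12.1 to 14.7 in the other 3.

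Of 40 members tested, 13 over the logCPM limit, 4 were thus called higher and 1 lower, against 9.07% and 7.22% of all genes. Without replicate 4 the counts were 4 and 2, against 9.86% and 7.37%. The median over the members over the limit was 0.86 with and 0.50 without replicate 4, and 0.04 and 0.05 over all genes over it. Leaving out each library in turn gave 1 to 4 higher members, with 1 left without Y-TTPΔARE HSC replicate 1 or replicate 2 and 2 left without HSC replicate 4 or MPP3 replicate 1. The lower count was 0 without HSC replicate 2, 3 or 4 or MPP3 replicate 1 or 2. Again all 21 S phase genes were called higher. Of the stem-loop list 4 were called higher (6 without replicate 4, with Slbp at 0.82), of the variants 7 higher and 1, H1f0, lower, and of the chaperones 8 higher. Summed megakaryocyte markers were at 120 to 183 CPM in Y-TTPΔARE HSCs and 82.3 to 96.4 in Y-TTPΔARE MPP3 cells, endothelial markers at 170 to 212 and 97.0 to 124, neutrophil markers at 8.93 to 13.0 and 14.0 to 134, and T and NK cell markers at 81.5 to 140 and 201 to 575. None of these 4 sums overlapped between the groups, and their part in the members' values was not tested.

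**Figure D4:**
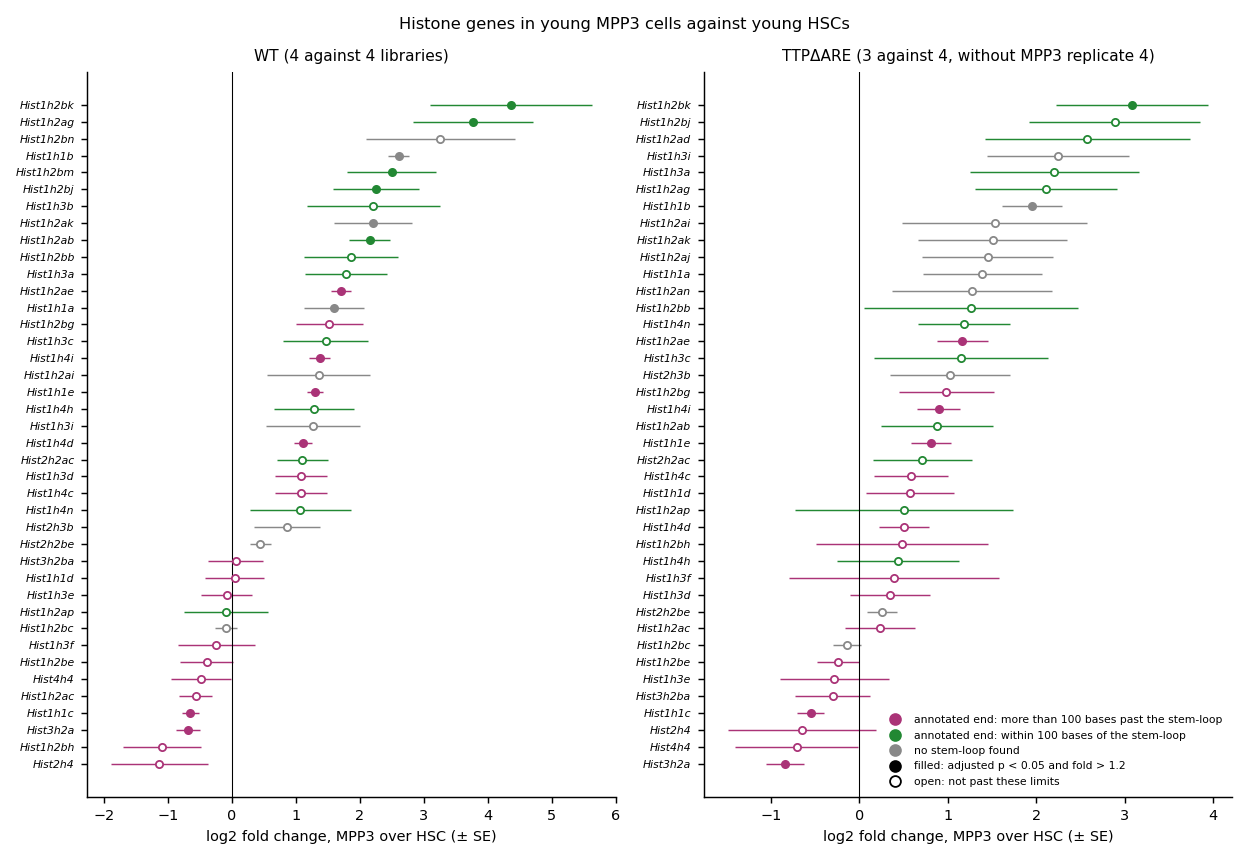
Log2 fold change of MPP3 cells over HSCs ± SE for the tested members, in WT (left, 4 against 4 libraries) and in TTPΔARE without replicate 4 (right, 3 against 4), coloured by annotated end and filled where called with no limit on logCPM. Hist1h1b is at 2.61 and 1.95, and Hist1h1c and Hist3h2a lie below 0 in both.

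Replicate 4 of Y-TTPΔARE MPP3 differed from its group in most members. Of 23 members with a mean of at least 1 CPM in the other 3 libraries, 21 were above all 3 and 20 above all 7 other MPP3 libraries. The ratio to the mean of the other 3 ran from 1.09 for Hist1h1b to 10.3 for Hist1h2ae, with a median of 2.50. In the same library, genes with a ribosomal protein symbol summed to 2.45 times the mean of the other 3, the histone variants to 1.86, the S phase genes to 1.21 and Malat1, a nuclear RNA, to 0.804 times. Its T and NK cell marker sum was 575 CPM against 201 to 269, and its TMM factor was 0.731. The part of these in the member levels was not tested. The study used 3 of the 4 libraries of this group and does not name the one it left out.

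The comparison of ages asks whether the members differ between HSCs of middle-aged and young mice. Among WT HSCs, Hist1h2ae was lower in middle-aged mice, at 4.63, 3.89, 5.21, 6.78 and 4.01 CPM against 9.54, 6.88, 8.84 and 9.13 CPM in young mice. The highest middle-aged library lay just below the lowest young one. The log2 fold change was -0.82 ± 0.17 (95% interval -1.19 to -0.46, adjusted p = 0.00789), and it kept its call without any 1 of the 9 libraries, at -0.96 to -0.73. With the olfactory receptor level as a covariate it was at -0.79 and the call was lost (adjusted p = 0.0561). Hist1h4d, the highest member, was at 24.6, 26.7, 30.7, 33.8 and 24.7 CPM in middle-aged and at 30.0, 22.5, 24.9 and 29.5 CPM in young mice, and the groups overlapped (0.06 ± 0.11, 95% interval -0.18 to 0.30).

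Of 29 members tested, 10 over the logCPM limit, 0 were called higher and 1 lower, against 8.38% and 3.69% of all genes. At an unadjusted p under 0.05 the counts were 0 and 12, and DESeq2 called 0 and 2. Here and below, no share of all genes is given for counts of these 2 kinds, so they cannot be set against all genes. Without the logCPM limit 6 were called lower, against 9.53% of genes. They were Hist1h2ae, Hist1h1b at -1.63 ± 0.32 (adjusted p = 0.0068), Hist1h2ap (-2.82), Hist1h1d (-1.80), Hist2h2ac (-1.58) and the H3 gene Hist1h3d (-1.39). The summed level of olfactory receptor genes was 45.2 to 680 CPM in the young and 31.6 to 147 CPM in the middle-aged WT HSC libraries. Hist1h1d rose and fell with this sum across the HSC libraries, as given below. Beyond Hist1h2ae, the part of this sum in the lower values was not tested. Hist1h1b was at 0.475, 0.910, 1.05, 1.74 and 0.908 CPM in middle-aged against 2.67 to 3.60 CPM in young WT HSCs, with no overlap. Over the limit, Hist1h2ae and Hist1h2ac (-1.24, adjusted p = 0.0618) were lower without overlap, against 5.07% of all genes. The median log2 fold change over the 10 members over the limit was -0.11, against 0.06 over all genes over it. Over the 29 members tested it was -0.72, with 25 negative, against -0.04 over all genes tested.

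Among TTPΔARE HSCs, Hist1h1b was the 1 member called lower and none was called higher, of 27 tested and 10 over the limit, against 3.24% and 4.98% of all genes. At an unadjusted p under 0.05 there were 1 higher and 7 lower in edgeR, and DESeq2 called 0 higher and 3 lower. Again no matching share of all genes is given. Hist1h1b was at 0.880, 1.02 and 0.611 CPM in middle-aged against 4.21, 1.87, 5.73 and 5.17 CPM in young mice, a log2 fold change of -2.34 ± 0.39 (95% interval -3.20 to -1.49, adjusted p = 0.00384). The groups did not overlap. Its average logCPM fell below the limit, with an adjusted p of 0.00646 to 0.0119, when Y-TTPΔARE HSC replicate 1, 3 or 4 was left out, and the count was then 0. Without Y-TTPΔARE HSC replicate 2 the count was 3.

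Hist1h2ae, at 3.99, 5.77 and 5.55 CPM against 5.95 to 14.2 CPM, differed by -0.93 (adjusted p = 0.0616) and Hist1h4i by -0.97 (adjusted p = 0.0603), both without overlap. Over the limit, 12.9% of all genes were lower without overlap. The median over the 10 members over the limit was -0.28, against 0.03 over all genes over it, and over the 27 tested -0.79, with 23 negative, against -0.01. The comparisons in the 2 genotypes share no library, and no member was called in both under the logCPM limit. Without that limit Hist1h1b was called lower in both.

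S phase genes and Slbp were lower in the same comparisons. In WT HSCs 12 of the 21 S phase genes were called lower and Slbp was at -0.42 (adjusted p = 0.0106), and in TTPΔARE HSCs 20 were called lower and Slbp was at -0.77 (adjusted p = 0.0019). Of the stem-loop list 3 were called higher and 1 lower in WT, and 0 and 1 in TTPΔARE. Of the variants, Cenpa, H2afx and H2afz were called lower in both genotypes and H2afv in TTPΔARE as well. Of the chaperones, Asf1b and Nasp were called lower in both, Hat1 lower in TTPΔARE and 1 gene higher in WT. The T and NK cell marker sum was lower in middle-aged HSCs too, as given above. The summed level of 6 MPP3 and myeloid progenitor markers was 11.6 to 22.0 CPM in Y-WT and 16.8 to 23.4 in Y-TTPΔARE HSCs, against 3.94 to 4.64 in M-WT and 2.44 to 5.92 in M-TTPΔARE HSCs, without overlap between ages. That of 6 erythroid markers was 14.9 to 21.3 CPM in Y-WT, 14.8 to 98.4 in M-WT, 43.7 to 91.2 in Y-TTPΔARE and 54.9 to 65.5 in M-TTPΔARE HSCs. The HSC marker sum of 8 genes was also higher in middle-aged mice, at 3689 to 4399 against 3063 to 3424 CPM in WT and 4477.25 to 4868 against 3573 to 3659 CPM in TTPΔARE, and that of 5 neutrophil markers was lower in M-TTPΔARE (3.14 to 4.24 CPM) than in Y-TTPΔARE HSCs (8.93 to 13.0). The part of these cells in the age differences was not tested.

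The comparison of TTPΔARE with WT asks whether overexpressed TTP moves the members. Zfp36 was first checked in every library. It was at 69.2, 32.5, 34.8 and 53.5 CPM in Y-WT HSCs and 105, 92.4, 85.4 and 96.2 in Y-TTPΔARE HSCs, and at 45.7, 49.6, 41.6, 53.5 and 60.4 in M-WT HSCs and 95.0, 104 and 106 in M-TTPΔARE HSCs. In MPP3 cells it was at 38.4, 20.5, 28.9 and 30.0 CPM for WT and 116, 97.4, 81.7 and 124 for TTPΔARE. In each comparison all TTPΔARE libraries were above all WT libraries. The log2 fold change was 0.96 ± 0.21 in young HSCs (adjusted p = 0.238), 0.97 ± 0.11 in middle-aged HSCs (adjusted p = 0.002) and 1.80 ± 0.18 in MPP3 cells (adjusted p = 0.000646).

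No member was called higher or lower in young HSCs, of 29 tested and 12 over the logCPM limit, against 0.0123% of all genes in each direction. At an unadjusted p under 0.05, edgeR had 2 higher and 2 lower, for which no share of all genes is given. DESeq2 called 0 higher and 1 lower, likewise without such a share. That member was Hist1h2ac (H2A), at 3.35, 5.31, 4.09 and 4.16 CPM in Y-WT and at 2.67, 2.51, 1.91 and 1.72 CPM in Y-TTPΔARE HSCs. The groups did not overlap, as was so for 1.74% of all genes over the limit in that direction. Its log2 fold change was -0.98 ± 0.25 (95% interval -1.54 to -0.42, adjusted p = 0.295, edgeR), and -0.96 with an adjusted p of 0.04 in DESeq2. Hist3h2a was at 8.82, 12.1, 12.2 and 15.8 CPM in Y-TTPΔARE against 10.5, 6.74, 7.99 and 7.53 CPM in Y-WT HSCs, with overlap (0.52 ± 0.18, 95% interval 0.12 to 0.93, adjusted p = 0.487).

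For the high members the intervals in young HSCs bound the difference. Hist1h4d was at 0.35 ± 0.24 (95% interval -0.18 to 0.87), Hist1h2ae at 0.14 ± 0.24 (-0.40 to 0.68), Hist1h1b at 0.41 ± 0.32 (-0.29 to 1.11) and Hist1h1c at -0.03 ± 0.13 (-0.32 to 0.27). Replicates 3 and 4 of Y-TTPΔARE were above all Y-WT libraries for the first 3 of these genes, and replicates 1 and 2 were not, except replicate 1 for Hist1h1b. The median over the tested members was -0.03, with 14 positive and 15 negative, and -0.07 over all genes tested. Over the 12 members over the logCPM limit it was 0.22, against 0.03 over all genes over it.

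In middle-aged HSCs 0 members were called in either direction, of 25 tested and 9 over the limit, against 0.7% of all genes higher and 0.71% lower. At an unadjusted p under 0.05 edgeR had 1 higher and 0 lower, and DESeq2 called 0. Hist1h1c was at 24.1, 21.4 and 22.7 CPM in M-TTPΔARE and at 18.6, 19.8, 12.9, 14.1 and 18.1 CPM in M-WT HSCs. All TTPΔARE libraries were higher, as was so for 9.46% of all genes over the limit (0.40 ± 0.14, 95% interval 0.08 to 0.71, adjusted p = 0.212). Hist3h2a was at 11.2, 14.2 and 14.1 against 5.34 to 12.1 CPM (0.47 ± 0.22, adjusted p = 0.315). Hist1h4d was at -0.02 ± 0.10 (95% interval -0.24 to 0.21), Hist1h2ae at 0.02 ± 0.20 (-0.42 to 0.46) and Hist1h1b at -0.32 ± 0.42 (-1.24 to 0.60).

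In MPP3 cells 0 members were called in either direction as well, of 48 tested and 14 over the limit, against 1.58% of all genes higher and 0.137% lower. At an unadjusted p under 0.05 edgeR had 3 higher and 0 lower, and DESeq2 called 0. Hist3h2a was at 7.50, 7.39, 5.60 and 10.3 CPM in Y-TTPΔARE and at 5.54, 5.11, 5.86 and 4.64 CPM in Y-WT MPP3 cells, overlapping by 1 library (0.49 ± 0.18, 95% interval 0.10 to 0.89, adjusted p = 0.282). Hist1h4n, a low H4 gene, was at 2.12, 1.61, 1.01 and 5.01 against 1.13, 1.27, 0.670 and 0.311 CPM, also with overlap (1.43 ± 0.57, adjusted p = 0.344). Without replicate 4 its log2 fold change was 0.94 (adjusted p = 0.634).

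Replicate 4 changed the sign of several members here. The member median was 0.39 with 36 of 48 positive with it, and -0.03 with 21 of 49 positive without it. Hist1h2ae was at 1.19 ± 0.69 (95% interval -0.36 to 2.73) with and at -0.35 ± 0.19 (-0.80 to 0.09) without it, and Hist1h4d at 0.53 ± 0.43 (-0.42 to 1.48) and -0.21 ± 0.19 (-0.64 to 0.22). Hist3h2a kept its sign, at 0.40 ± 0.16 without replicate 4 (adjusted p = 0.38). Without it 0 members were called, against 1.49% and 0.183% of all genes, with 1 higher and 2 lower at an unadjusted p under 0.05.

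Several marker sums did not overlap between genotypes. In young HSCs these were the T and NK cell, erythroid and HSC sums, all higher in TTPΔARE, with the values given above. In middle-aged HSCs the HSC sum was higher in TTPΔARE and the neutrophil sum lower (5.96 to 13.8 CPM in WT), and the megakaryocyte sum was 163 to 199 CPM in WT and 115 to 141 in TTPΔARE. In MPP3 cells the erythroid sum was 13.2 to 31.1 CPM in WT and 56.9 to 122 in TTPΔARE, and the megakaryocyte sum 139 to 154 and 82.3 to 96.4. The part of these cells was not tested. Among the lists, no gene was called between genotypes in young HSCs or MPP3 cells. In middle-aged HSCs, Gins2, Mcm3 and Mcm6 of the S phase list, Casp8ap2, a coactivator of histone gene expression, and the chaperone subunit gene Cabin1 were called lower in TTPΔARE. The S phase sum of these groups did not overlap, at 1630 to 2264 CPM in WT and 1471 to 1621 in TTPΔARE.

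The difference in the effect of TTPΔARE between cell types or ages was tested as an interaction. Between MPP3 cells and HSCs, 0 of 49 members tested (13 over the limit) were called, against 0.383% of all genes higher and 0.0456% lower. No member had an unadjusted p under 0.05 in edgeR, and DESeq2 called 0. The smallest p were those of Hist1h2bh at 2.30 ± 1.10 (95% interval -0.03 to 4.62, adjusted p = 0.477) and Hist1h1b at -0.73 ± 0.37 (-1.51 to 0.06, adjusted p = 0.518). Without replicate 4 Hist1h2bh was at 1.52 ± 1.05 (adjusted p = 0.763) and Hist1h1b at -0.71 (adjusted p = 0.688), and the count was again 0, against 0.278% and 0.025% of all genes. Between ages, 0 of 35 members (9 over the limit) were called, against 0.00355% and 0.0177% of all genes, 0 higher and 1 lower at an unadjusted p under 0.05 and 0 in DESeq2. Hist1h4i was at -0.77 ± 0.35 (95% interval -1.51 to -0.03, adjusted p = 0.321) and Hist1h3e at 1.05 ± 0.56 (-0.13 to 2.23, adjusted p = 0.363). No gene of the 4 lists was called in either interaction.

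Across libraries, members differed in how they followed the S phase genes. Over the 16 HSC libraries, on log2(CPM + 0.5), Hist1h1b correlated with the summed S phase level at Pearson's r = 0.898 (adjusted p = 0.0008, 100000 permutations, 48 relations) and Spearman's rho = 0.921 (adjusted p = 0.00016), and at r = 0.919 without the 2 libraries farthest from the median. Within the 8 young libraries r was 0.725 (exact permutation p = 0.0469, unadjusted) and within the 8 middle-aged ones 0.571 (exact permutation p = 0.14), and the difference between the ages was not tested.

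Hist1h4i gave r = 0.807 (adjusted p = 0.0008, permutation) and rho = 0.932 (adjusted p = 0.00016), with r = 0.821 without the 2 farthest libraries, 0.730 within young (exact permutation p = 0.0418) and 0.596 within middle-aged (p = 0.115, exact). Hist1h2ae gave r = 0.784 (adjusted p = 0.00636, permutation) and rho = 0.818 (adjusted p = 0.00288), with 0.437 within young (p = 0.271, exact) and 0.346 within middle-aged libraries (p = 0.399, exact). Neither within-age value passed the test at 8 libraries each. Without the 2 farthest libraries r was 0.776 for Hist1h2ae. Hist1h1e gave r = 0.698 (adjusted p = 0.0191, permutation) and rho = 0.671 (adjusted p = 0.0544, permutation). Its r was 0.733 within young (p = 0.0477, exact) and 0.319 within middle-aged libraries (p = 0.444, exact).

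Hist1h4d and Hist1h1c gave r = 0.349 (adjusted p = 0.454, permutation) and r = -0.294 (adjusted p = 0.534, permutation), and Hist1h1c was at -0.962 in the 8 libraries of middle-aged mice (unadjusted p = 0.000397, exact) and at 0.243 in the 8 of young mice. The middle-aged libraries hold 2 genotypes that overlapped in neither measure. S phase sums were 1630 to 2264 CPM in M-WT and 1471 to 1621 in M-TTPΔARE HSCs, and Hist1h1c lay higher in M-TTPΔARE. Within these libraries r with S phase was also negative for Hist1h2be (-0.759, unadjusted p = 0.0315, exact) and Hist2h2be (-0.751, p = 0.0287, exact). The same sign held for Hist1h2bc (-0.707, p = 0.0507, exact), Hist3h2a (-0.664, p = 0.0688, exact) and Hist1h1d (-0.160). It was positive for the rest of the 12 highest members. Hist1h1d followed another measure, the summed level of 1405 olfactory receptor genes, taken as a background measure in these cells. This sum ran from 31.6 to 680 CPM over the HSC libraries, and its lowest value in any library was 12.7 CPM, in MPP3 cells. Over the HSC libraries Hist1h1d gave r = 0.953 (adjusted p = 0.00048, permutation) and rho = 0.932 (adjusted p = 0.00016). Its r was 0.930 without the 2 farthest libraries, 0.972 in young (p = 0.000422, exact) and 0.873 in middle-aged HSCs (p = 0.00499, exact). None of the relations over the 8 MPP3 libraries passed the adjustment, with the smallest adjusted p at 0.242 for r and 0.123 for rho (exact permutation). Several of these values moved without Y-TTPΔARE MPP3 replicate 4. Against S phase, r went from 0.477 to 0.921 for Hist1h2ae and from 0.527 to 0.823 for Hist1h4d. It went from -0.334 to -0.812 for Hist1h2bc and from -0.301 to -0.784 for Hist3h2a, while Hist1h1b stayed near its value (0.836 and 0.854). Against olfactory receptors, Hist1h1c went from 0.483 to 0.940. The values without that library were not tested.

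**Figure D5:**
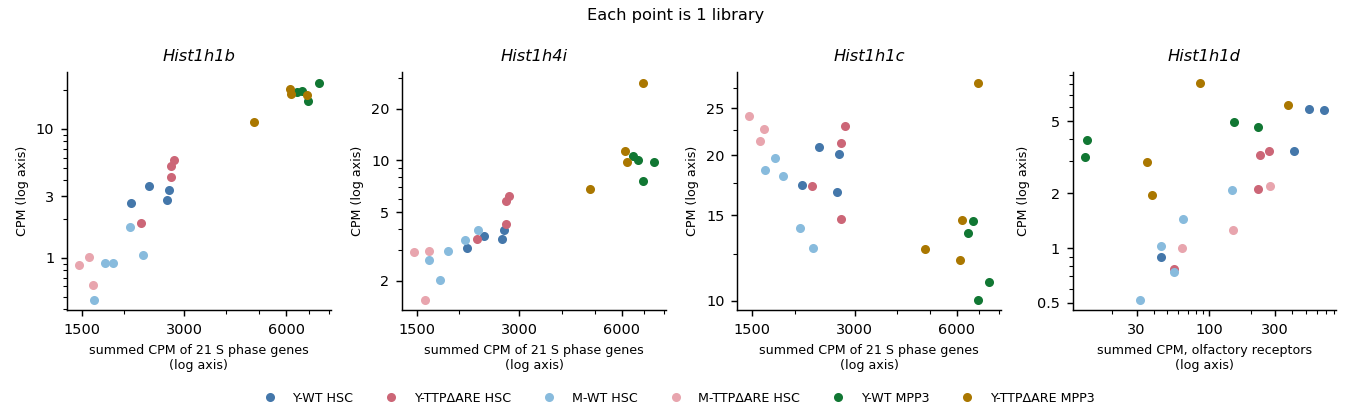
CPM of Hist1h1b, Hist1h4i and Hist1h1c against the summed CPM of 21 S phase genes, and of Hist1h1d against the summed CPM of 1405 olfactory receptor genes (log axes), with 1 point for each of the 24 libraries coloured by group. Over the 16 HSC libraries r was 0.898, 0.807, -0.294 and 0.953 in turn.

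The members also share promoter features that did not enter the choice. RefSeq start sites (GRCm38.p6) were matched for 60 of the 69 members, and the 300 bases around each start were searched on both strands. CCAAT, the letters bound by factor NF-Y, was present in 51 of 60 against 37.408% of all 32851 windows, but in only 3 of 12 H4 promoters. TATAAA was present in 34 of 60 against 13.616%. The octamer ATTTGCAT, the letters bound by OCT factors, was present in 7 of 17 H2A and 6 of 16 H2B promoters and in none of the H1, H3 or H4 promoters, against 1.735% of all windows. These counts are not all of separate sites. Hist1h2ae and Hist1h2bg, Hist1h2ah and Hist1h2bk, and Hist1h2aa and Hist1h2ba each hold the same octamer in overlapping windows. A match is a description of the letters and no evidence of binding.

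H2A and H2B genes often lie head to head and share such a window. Hist1h2ae and Hist1h2bg, whose starts are 176 bases apart, share the stretch below, shown because it carries the octamer and Hist1h2ae is the highest H2A gene, with the octamer in capitals.
chr13:23571330-23571359: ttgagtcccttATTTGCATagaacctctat

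The mean level of Hist1h2ae was 31.3 CPM per kb and that of Hist1h2bg 1.46, a ratio of 21.4, with 69.3% and 55.1% of their stretches unique. Without Y-TTPΔARE MPP3 replicate 4 they were at 18.3 and 1.37 CPM per kb, a ratio of 13.4. Hist1h2ah and Hist1h2bk, with overlapping promoter windows that both hold the octamer, were at 0.324 and 0.703 CPM per kb. Hist1h2aa and Hist1h2ba, which also hold it in overlapping windows, were both low, at 0.0332 and 0.0318 CPM per kb. Of pairs with neighbouring starts but without a matched window for both genes, Hist1h2ac and Hist1h2bc, 251 bases apart, were at 1.06 and 14.4 CPM per kb, and Hist2h2ac and Hist2h2be, 239 bases apart, at 3.12 and 4.28. These 5 pairs were chosen after their values were seen, and other head-to-head pairs were not compared.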

How the data were processed

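Per the study's methods, the authors used Trim Galore! with Cutadapt for trimming, STAR (mm10, GENCODE M22) for alignment and featureCounts for gene-level counting. Neither the strand setting nor the treatment of multimapping reads is given. The deposited values are raw counts per gene symbol, whole numbers with no normalization. The study names the SMART-seq v4 kit and the labels another SMARTer kit, which is not settled here.

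Counts were analysed with edgeR 4.0.16 (R 4.3.3, limma 3.58.1) by the quasi-likelihood F test, on the libraries of the groups compared only, with TMM scaling and filterByExpr (minimum count 10, minimum total 15). Each fit covered all genes, and CPM were scaled over all 24 libraries together. Calls followed the limits in the study's methods: adjusted p (Benjamini-Hochberg) under 0.05, average logCPM over 1.5 and fold change over 1.2. The SE is the log2 fold change divided by the square root of F, and the 95% interval uses a t quantile. The code was tested on simulated data. Alternatives were DESeq2 1.42.0, other scalings, filters and limits, all 24 libraries in a fit, a replicate block, leaving out libraries and, chosen after seeing the data, an olfactory receptor covariate and mean levels without Y-TTPΔARE MPP3 replicate 4. No replicate pair differed by less than counting noise (smallest reduced chi-square 18.2).

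The main fits did not pair samples by replicate number, and the replicate block was used only as an alternative. For TTPΔARE MPP3 against HSC the deviations of same-numbered libraries correlated at 0.181 to 0.380 in all 4 pairs. That was found in the data and is not stated by the labels. The p-values given for that comparison are from the unpaired fit and take no account of it.

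The members and lists were chosen with earlier results of these data known. Named genes are the 12 members with the highest mean CPM, the called members of each comparison (up to 5 in each direction) or else the 2 with the smallest p, the 8 listed partners (Slbp, Npat, H2afz, H3f3b, Pcna, Mcm5, Mki67, Ccna2) and Zfp36. Other genes named were chosen after their values were seen.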

Additional observations from a re-analysis of the deposited data

Results flagged for a closer look

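In each group of 4 or 5 libraries, the highest and lowest values were tested for distance from the others by Dixon's criterion at 95%, in 110 groups of values. Chance flags about 1 in 20 such groups, and 15 stood out.

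Most lay in Y-TTPΔARE MPP3 replicate 4, which was far above the other 3 for Hist1h4d (223 CPM), Hist1h2ae (233), Hist1h1c (28.2) and Hist1h2ab (13.4). The same held for the sum of the members (779 CPM) and for the sums of H2A (285), H2B (79.7), H3 (27.9) and H4 (271). Hist1h1b, at 18.3 CPM, lay within the range of its group. The levels of other gene groups in this library stand beside the results above, and their part was not tested.

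The other 6 were single values. Hist1h1e was high in M-WT HSC replicate 3 (10.2 CPM), and Hist1h2bh was high in M-WT HSC replicate 4 (0.675 CPM). In Y-WT HSC replicate 3 Hist2h2be was low (6.69 CPM) and Hist1h2ab high (1.71 CPM). In Y-WT MPP3 replicate 4 the sum of the members (214 CPM) and Hist1h2bh (0.311 CPM) were low.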

How the results depend on the processing

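Leaving out Y-TTPΔARE MPP3 replicate 4 turned the sign of Hist1h2ae (1.19 to -0.35) and Hist1h4d (0.53 to -0.21) between genotypes in MPP3 cells, neither of which was called. Of the called members followed under the alternatives (up to 5 in each direction of a comparison), none changed sign under any of them. Hist1h4d, also called in WT MPP3 cells against HSCs, was not among these. The 2 members with the smallest p where none was called kept their sign too. In young HSCs DESeq2 called 1 member lower in TTPΔARE. Among the calls on named members, 2 were lost with all 24 libraries in the fit, 1 with DESeq2 and 1 with library totals. For WT MPP3 cells against HSCs 12 members were called higher without the logCPM limit, and leaving out each library gave 5 to 7 higher and 1 to 2 lower. For TTPΔARE the count was 8 higher without the limit, or 5 when replicate 4 of the MPP3 cells was left out too. No matching share of all genes is given for these counts, and the filter on low counts acts on them as described above. The lower count was 0 with the olfactory receptor covariate, and leaving out each library gave 1 to 4 higher and 0 to 2 lower. In WT HSCs the lower count between ages was 6 without the limit, 0 with the covariate and 2 with DESeq2, library totals, no filter, all 24 libraries or the replicate block (1 to 2 leaving out each library). In TTPΔARE HSCs it was 3 with DESeq2 or no filter and 0 with the replicate block (Hist1h1b -2.13, adjusted p = 0.0583), and 0 to 3 leaving out each library. The replicate block changed no other count of calls by over 1.5 times. Outside TTPΔARE MPP3 against HSC, same-numbered libraries correlated at -0.201 to 0.244, and the main fits paired no libraries by number in any comparison. For WT MPP3 against HSC all 4 pairs were positive, at 0.034 to 0.244. Whether such libraries share an animal or a batch is not settled by these values. The causes were not tested.

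Without scaling factors the summed CPM of Y-WT HSCs was 150, with H1 at 41.1 and H2A at 27.8. Without Hist1h4d the sums were 109 in Y-WT HSCs, 85.1 in M-WT HSCs, 99.9 in M-TTPΔARE HSCs and 183 in Y-WT MPP3 cells. In each comparison 14 or fewer members passed the logCPM limit, which is a limit on level, and how depth bears on the calls was not tested.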
